A study of Mus musculus with 12 samples.

Results

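The aryl hydrocarbon receptor and a small set of genes tied to it were followed in C2C12 cells, a mouse myoblast line, with and without the bromodomain inhibitor PFI-3. The set holds 7 genes: the receptor Ahr, its DNA-binding partner Arnt, the repressors Ahrr and Tiparp, and the enzymes Cyp1a1, Cyp1b1 and Aldh3a1. They are 7 of the 16288 genes listed in at least one of the 12 libraries, and all 7 passed the low-count filter, which kept 12545 genes. The set had been chosen from measured values in these libraries, as genes of the pathway said to be higher with PFI-3 at every stage. Their difference between PFI-3 and DMSO is therefore described here without a test.

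C2C12 is an immortalized line that divides in serum-rich medium and forms myotubes when serum is withdrawn, and all groups came from this line with no deletion or transgene named in the labels. Proliferating cells, labelled GM, grew below confluence in fetal bovine serum. Differentiating cells were moved at near confluence to horse serum with insulin and were taken 24 h (DM 24h) or 48 h (DM 48h) later. At each stage cells received either DMSO, the vehicle, or 50 uM PFI-3, a small molecule directed at the bromodomains of BRM, BRG1 and PB1, proteins of SWI/SNF chromatin remodelling complexes. Exposure began 12 h before harvest in GM and 12 h before induction in DM, and the agent was renewed in the differentiation medium every 24 h. Length of exposure thus differed between stages. The 6 groups were sequenced in duplicate, as libraries A and B, and the labels call these biological duplicates.

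The receptor is a transcription factor of the bHLH-PAS family that rests in the cytosol with a chaperone complex until it binds a ligand, such as a planar aromatic compound or a tryptophan metabolite. It then enters the nucleus, pairs with ARNT and binds xenobiotic response elements near genes of foreign-compound metabolism, of which Cyp1a1 is the best known. The response limits itself: AHRR competes with the receptor for ARNT, TIPARP attaches ADP-ribose to the receptor, and CYP1 enzymes clear many of its ligands. The pathway is best known from liver and barrier tissues.

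Windows of 300 bases around the annotated starts (250 bases before and 50 after) were taken from RefSeq on build GRCm38.p6 for 5 of the 7 genes, and Ahr and Aldh3a1 are named only. The sequences are printed 5′ to 3′ on the strand of the gene, with each match to GCGTG, the core of the xenobiotic response element, or to its complement CACGC in capitals. They are shown because this core is part of the receptor's binding sequence, and Arnt stands beside the 4 genes that were higher with PFI-3. Bases outside these windows were not searched.
Cyp1a1: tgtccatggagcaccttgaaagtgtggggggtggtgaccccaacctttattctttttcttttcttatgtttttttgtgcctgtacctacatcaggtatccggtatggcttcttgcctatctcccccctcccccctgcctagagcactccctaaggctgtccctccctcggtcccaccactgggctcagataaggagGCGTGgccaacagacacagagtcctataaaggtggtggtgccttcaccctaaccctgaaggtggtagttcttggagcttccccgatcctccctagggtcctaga
Cyp1b1: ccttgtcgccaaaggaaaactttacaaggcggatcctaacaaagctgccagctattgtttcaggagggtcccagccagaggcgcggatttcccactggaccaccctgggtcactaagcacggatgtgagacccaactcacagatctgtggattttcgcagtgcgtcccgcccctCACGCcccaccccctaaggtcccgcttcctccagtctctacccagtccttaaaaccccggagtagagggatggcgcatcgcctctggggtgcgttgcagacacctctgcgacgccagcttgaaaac
Tiparp: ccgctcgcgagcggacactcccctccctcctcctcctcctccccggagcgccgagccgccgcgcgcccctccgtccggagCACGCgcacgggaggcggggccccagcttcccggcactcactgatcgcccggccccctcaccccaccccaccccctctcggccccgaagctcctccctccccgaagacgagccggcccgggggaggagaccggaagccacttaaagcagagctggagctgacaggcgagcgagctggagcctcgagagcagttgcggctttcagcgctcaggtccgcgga
Ahrr: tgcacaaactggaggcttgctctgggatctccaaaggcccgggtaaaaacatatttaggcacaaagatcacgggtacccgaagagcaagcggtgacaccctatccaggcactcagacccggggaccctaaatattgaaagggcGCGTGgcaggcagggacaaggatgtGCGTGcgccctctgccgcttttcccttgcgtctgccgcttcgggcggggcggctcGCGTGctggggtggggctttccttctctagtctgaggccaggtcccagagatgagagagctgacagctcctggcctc
Arnt: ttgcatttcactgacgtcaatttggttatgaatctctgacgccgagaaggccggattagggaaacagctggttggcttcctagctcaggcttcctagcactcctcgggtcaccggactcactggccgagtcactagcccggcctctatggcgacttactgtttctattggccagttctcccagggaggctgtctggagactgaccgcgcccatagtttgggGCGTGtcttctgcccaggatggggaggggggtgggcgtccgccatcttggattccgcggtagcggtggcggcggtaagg

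The windows lie at chr9:57697363-57697662 (plus strand) for Cyp1a1, chr17:79715012-79715311 (minus) for Cyp1b1, chr3:65528197-65528496 (plus) for Tiparp, chr13:74292282-74292581 (minus) for Ahrr and chr3:95434140-95434439 (plus) for Arnt. The Cyp1a1 window falls inside the span that RefSeq gives the gene, chr9:57687928-57703824. All 5 windows held the core on one strand or the other. The match in Cyp1a1 began 54 bases before the start, that in Cyp1b1 76 bases, that in Tiparp 170 bases and that in Arnt 29 bases before it. Ahrr held 3 matches, which began 107, 82 and 27 bases before its start. The core is common: 32.4% of 32817 windows of the same length held it on either strand. The longer motif TNGCGTG, which contains the core, was held by 5.06% of windows and by only 1 of these 5, that of Ahrr, where it overlaps the core match nearest the start. TGANNNNGC, the core of the antioxidant response element that NRF2 binds, was found in 41.3% of all windows and in those of Tiparp (1 match), Ahrr (2) and Arnt (2). The windows were richer in G and C (54% to 73.7%) than the median window (52.7%), and a match is a description of the letters only.

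**Figure D1:**
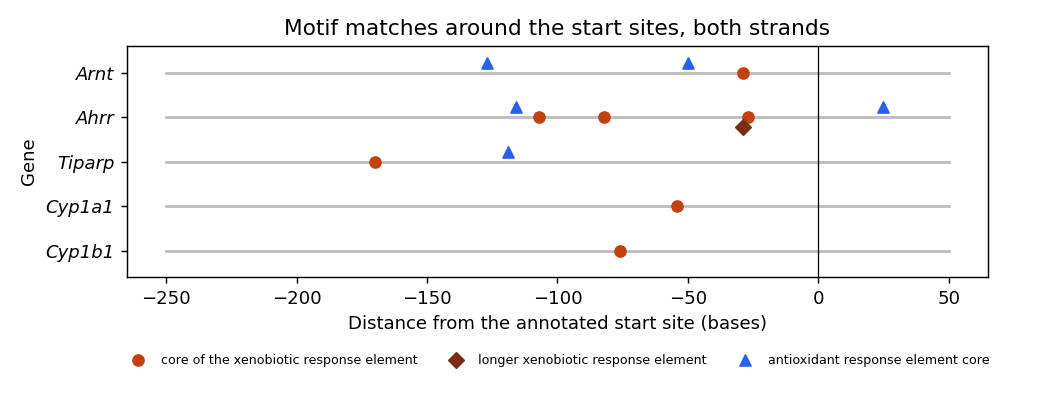
Positions of the 3 motifs in the 5 promoter windows, as distance in bases from the annotated start to the first base of a match on either strand. Each grey line is 1 window, circles are the GCGTG core, diamonds the longer TNGCGTG and triangles TGANNNNGC. All 5 windows hold a core match upstream of the start, and the longer motif appears only in Ahrr among them.

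Total expected counts per library ranged from 12576374 to 13658352. Levels are given in CPM, counts scaled to the library total and edgeR's TMM factors. The 2 GM pairs were less alike than the DM pairs: the SD of the log2 ratio of library B to library A over 10656 genes was 0.333 and 0.301 in GM and between 0.138 and 0.151 in DM. Summed CPM of 8 muscle lineage markers, all 8 detected, was 792 to 814 in GM DMSO and 497 to 622 in GM PFI-3. It was 3629 to 3630 against 2066 to 2083 at DM 24h, and 16989 to 17135 against 11804 to 12246 at DM 48h. In GM only Des and Cdh15 of these were lower without overlap. Myog (0.157 and 0.369 against 0.436 and 0.855 CPM) and Myh3 (0.47 and 0.591 against 0.8 and 1.07 CPM) were higher there, at low levels. At DM 24h Myf5 was higher with PFI-3, at 42.8 and 39.0 against 46.6 and 51.3 CPM. Each of the 8 was lower at DM 48h. The sum of 5 fibroblast markers was also lower with PFI-3, at 420 to 424 against 101 to 102 CPM at DM 24h, through Col1a1 (399 and 396 against 63.8 and 61.3 CPM). Pdgfra went the other way, at 12.0 and 11.1 against 25.9 and 25.1 CPM there, Dcn overlapped there and was higher at DM 48h, at 15.1 and 14.9 against 22.2 and 19.0 CPM, and Thy1 and Lum stayed at or under 0.317 CPM. Both sums moved with the treatment at every stage, and the part of these markers in the values below was not tested. Hepatocyte markers summed to at most 0.0818 CPM in any library, with Alb, Ttr and Serpina1a absent, and adipocyte markers to at most 0.214 CPM, with Plin1, Cidec and Lep absent. Endothelial markers stayed at or under 1.8 CPM and macrophage markers at or under 9.55 CPM. In bulk RNA, fewer cells of a type and less RNA per cell cannot be told apart.

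The receptor and its partner did not follow the description by which the set was chosen. Ahr was lower with PFI-3 in differentiating cells, by 1.73-fold at DM 24h and 2.02-fold at DM 48h, and Arnt differed little at any stage. The other 5 genes were higher with PFI-3 at all 3 stages with no overlap between the groups, a pattern that 897 genes (7.15% of those tested) also showed. Counted over the 7 genes, 6 were higher without overlap in GM, where 21.4% of all genes tested were, and none was lower, where 24% were. At DM 24h, 5 were higher (35.3% of all genes) and 1 was lower (35.2%). At DM 48h, 5 were higher (35.4%) and 2 were lower (35.9%). Because the choice of genes used these contrasts, nothing is read from the counts.

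Ahr measured 17.1 and 21.9 CPM in the GM DMSO libraries A and B and 23.1 and 26.6 CPM in the GM PFI-3 libraries. The GM groups did not overlap, although the higher DMSO library lay close to the lower PFI-3 library, and the log2 fold change was 0.35 (SE 0.13). It was 0.18 without DMSO library A, 0.54 without DMSO library B, 0.24 without PFI-3 library B and 0.45 without PFI-3 library A. At DM 24h the values were 26.6 and 25.4 CPM with DMSO against 14.6 and 15.4 CPM with PFI-3, which is -0.79 (SE 0.13) on the log2 scale. At DM 48h they were 33.9 and 33.7 against 15.6 and 18.0 CPM, or -1.01 (SE 0.13). The direction thus turned between GM and DM 24h: the log2 fold change at DM 24h was lower than that in GM by -1.14 (SE 0.18), while DM 48h and DM 24h differed by -0.22 (SE 0.18). These differences between stages were not tested, for the reason given above. Stage, medium, serum, confluence and length of exposure to PFI-3 cannot be told apart in them. In order of mean level, DMSO cells at DM 48h stood highest and PFI-3 cells at DM 24h lowest, a 2.25-fold span. The neighbouring groups DM 24h DMSO and GM PFI-3 overlapped, as did GM DMSO and DM 48h PFI-3.

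Arnt, which the receptor shares with hypoxia-inducible factors and other bHLH-PAS proteins, was ordered by stage rather than by treatment. It measured 58.9 and 63.1 CPM in GM DMSO and 59.9 and 60.1 CPM in GM PFI-3. It measured 114 and 115 against 105 and 114 CPM at DM 24h. At DM 48h it measured 140 and 138 CPM with DMSO and 128 and 123 CPM with PFI-3, the only stage at which the groups did not overlap. The log2 fold changes were -0.02, -0.06 and -0.15 (SE 0.07 each). The sign in GM turned under 3 of 21 alternative settings, which gave up to 0.08.

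Ahrr, the competitor of the receptor for ARNT, was higher with PFI-3 at each stage, by 1.84-fold in GM, 2.29-fold at DM 24h and 3.64-fold at DM 48h. In GM it measured 12.9 and 10.5 CPM with DMSO and 18.2 and 24.8 CPM with PFI-3. At DM 24h the libraries held 2.93 and 3.17 CPM against 6.70 and 7.32 CPM. At DM 48h they held 1.38 and 1.64 CPM (17 and 20 counts) against 6.42 and 4.61 CPM (82 and 59 counts). No 2 groups that stood next to each other in the order of levels overlapped, from GM PFI-3 at the top to DM 48h DMSO, 14.2-fold lower. The log2 fold changes were 0.88 (SE 0.18), 1.20 (SE 0.24) and 1.86 (SE 0.29). They differed between stages by 0.32 (SE 0.30) and then 0.67 (SE 0.39), neither of which was tested.

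Tiparp, a mono-ADP-ribosyltransferase induced by the receptor, had a PFI-3 difference that was smaller at each later stage, where that of Ahrr was larger. In level, both genes were highest in GM PFI-3 and lowest in DM 48h DMSO. It measured 67.5 and 61.2 CPM in GM DMSO and 112 and 132 CPM in GM PFI-3, a log2 fold change of 0.92 (SE 0.08). The groups stood at 47.5 and 48.3 against 71.3 and 70.4 CPM at DM 24h, or 0.56 (SE 0.09) on that scale. By DM 48h they had come close, at 46.1 and 48.0 against 51.9 and 53.6 CPM, with a log2 fold change of 0.16 (SE 0.09). The effect was smaller by 0.36 (SE 0.12) at DM 24h than in GM and by a further 0.40 (SE 0.13) at DM 48h, neither of which was tested.

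**Figure D2:**
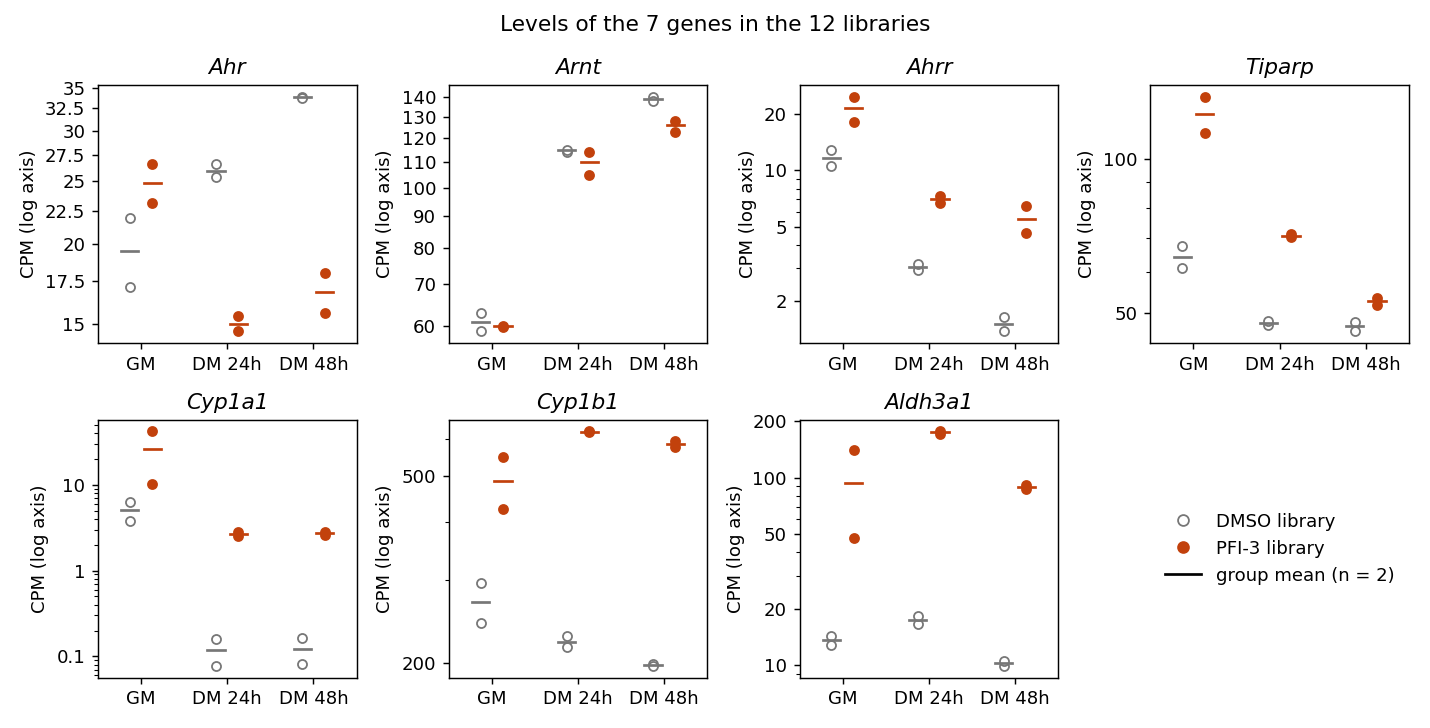
Level of each of the 7 genes in the 12 libraries, in CPM on a log axis, by stage. Open grey circles are DMSO libraries, filled orange circles PFI-3 libraries and short lines group means (n = 2). Ahr separates in opposite directions in GM and in DM, Arnt follows the stage, and the other 5 genes lie higher with PFI-3 at every stage.

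Cyp1a1, the cytochrome P450 most often used as a readout of the receptor, was nearly absent from differentiating DMSO cells and detected in all PFI-3 libraries. In GM it had 81 and 51 counts (6.35 and 3.76 CPM) with DMSO and 139 and 586 counts (10.1 and 41.7 CPM) with PFI-3. The 2 PFI-3 libraries thus lay far apart, and the log2 fold change of 2.36 (SE 0.50) was 1.01 without GM PFI-3 library B and 3.05 without library A. At DM 24h the DMSO libraries held 2 and 1 counts and the PFI-3 libraries 33 and 37. At DM 48h they held 1 and 2 counts against 36 and 33. The ratio of scaled counts was 23.4 at both DM stages, with a 95% exact interval of 7.70 to 116 at DM 24h and of 7.68 to 116 at DM 48h. The intervals pool the 2 libraries of a group and cover counting error only. They are no test, since the gene was chosen on these contrasts.

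Cyp1b1, the P450 of this family that is typical of mesenchymal cells, was the most abundant of the 7 genes per transcript length in all 6 groups, by group means. In GM DMSO its mean FPKM (fragments scaled by transcript length and depth, as deposited) was 51.3 ± 5.23 (SD, n = 2), against 1.89 ± 0.608 for Cyp1a1. It measured 296 and 243 CPM in GM DMSO and 426 and 550 CPM in GM PFI-3. It measured 228 and 216 against 622 and 624 CPM at DM 24h, and 199 and 197 against 579 and 595 CPM at DM 48h. All PFI-3 libraries therefore lay above all DMSO libraries regardless of stage. The log2 fold changes were 0.86, 1.49 and 1.57 (SE 0.11 each). The value at DM 24h was larger than that in GM by 0.63 (SE 0.16). The DM stages differed by 0.08 (SE 0.16), and neither difference was tested.

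Aldh3a1, an aldehyde dehydrogenase that oxidises aromatic and lipid aldehydes, showed the largest fold difference of the 7 genes in GM and, Cyp1a1 with its few counts aside, in DM. The GM DMSO libraries held 12.9 and 14.3 CPM and the GM PFI-3 libraries 47.4 and 140 CPM. The log2 fold change of 2.78 (SE 0.38) in GM was 1.80 without PFI-3 library B and 3.36 without library A, the same libraries that set Cyp1a1 apart. At DM 24h the values were 16.6 and 18.4 against 176 and 171 CPM, a 9.90-fold difference (log2 3.31, SE 0.37). At DM 48h they were 9.92 and 10.6 against 90.7 and 86.6 CPM, an 8.62-fold difference (log2 3.11, SE 0.40). The SEs in DM rest on a spread shared with the GM libraries. Per length, its mean at DM 24h was 11.4 FPKM with DMSO and 117 FPKM with PFI-3, beside 43.9 and 127 FPKM for Cyp1b1.

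**Figure D3:**
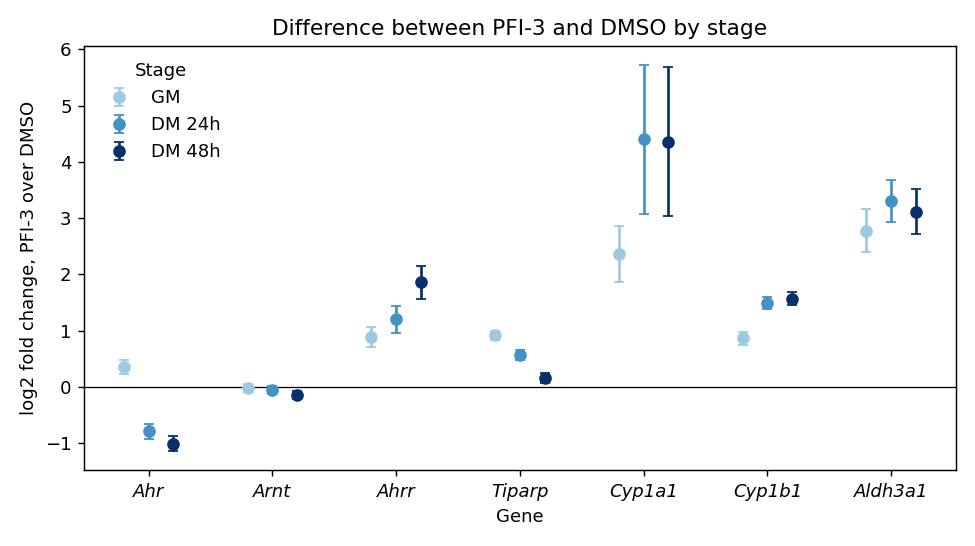
Log2 fold change of PFI-3 over DMSO for the 7 genes at GM, DM 24h and DM 48h (points) with its SE from the edgeR model (bars). Ahr moves from above 0 in GM to below 0 in DM, Arnt stays near 0 and Tiparp decreases from 0.92 to 0.16 over the stages. Ahrr runs from 0.88 to 1.86, and Cyp1b1 is higher in DM than in GM, with the DM stages close (1.49 and 1.57). These differences between stages were not tested. The wide bars of Cyp1a1 in DM come with the 3 counts that the DMSO libraries hold in total at each of those stages.

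The change of the 7 genes over time in DMSO cells was not used to choose them and was tested, although these libraries also enter the PFI-3 contrasts. Stages differed in medium, serum and confluence as well as in time. From GM to DM 24h, Ahr and Arnt rose and Ahrr, Tiparp, Cyp1a1 and Cyp1b1 fell, against 30.6% of all genes tested that rose and 30% that fell. Arnt rose by 0.91 on the log2 scale (SE 0.07, adjusted p = 3.27e-07). Ahr rose by 0.41 (SE 0.13, adjusted p = 0.0138), a call lost without library A of GM DMSO (0.24) or library A of DM 24h DMSO (0.38). Ahrr fell by 1.93 (SE 0.23, adjusted p = 1.61e-05) and Tiparp fell by 0.43 (SE 0.09, adjusted p = 0.00126).

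Among the enzymes, Cyp1a1 dropped from 132 counts over both GM DMSO libraries to 3 over both DM 24h libraries, a ratio of 0.0242 (95% exact interval 0.00494 to 0.0724, adjusted p of the edgeR test 0.00185). Cyp1b1 fell by 0.28 (SE 0.11, adjusted p = 0.0475), a call that 14 of 21 alternative settings lost, among them the removal of library A of GM DMSO (-0.13) or of any DM library. The spread of Aldh3a1 is shared by all 6 groups and so takes in its GM PFI-3 libraries, at 47.4 and 140 CPM. The gene did not pass, at 0.36 on the log2 scale (SE 0.42, adjusted p = 0.475). It passed the test with the same value when either GM PFI-3 library was left out, at an adjusted p of 0.00582 without A and 0.00612 without B.

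From DM 24h to DM 48h, 24.2% of all genes rose and 23.9% fell in DMSO cells. Ahr rose again, by 0.38 (SE 0.12, adjusted p = 0.0212), as did Arnt, by 0.28 (SE 0.07, adjusted p = 0.00406). Ahrr fell by a further 1.01 (SE 0.32, adjusted p = 0.0191). The Ahr and Ahrr calls were lost when any of the 4 DM DMSO libraries was left out, with values of 0.35 to 0.41 and -1.13 to -0.89. Tiparp (-0.03, adjusted p = 0.846), Cyp1b1 (-0.16, adjusted p = 0.253) and Aldh3a1 (-0.77, SE 0.44, adjusted p = 0.176) did not pass, and Aldh3a1 did without either GM PFI-3 library (adjusted p = 5.12e-05 without A and 5.4e-05 without B). Cyp1a1 had 3 counts at both times, and no fold is given.

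Across the 12 libraries the levels of some of the 7 genes ran together, which is given as a description since the points share stage and treatment. Cyp1b1 and Aldh3a1 had a Pearson r of 0.962 in log2 CPM, and Ahrr and Cyp1a1 of 0.95. Tiparp correlated with Ahrr at 0.874 and with Cyp1a1 at 0.873. Ahr ran against Cyp1b1 (-0.754) and Aldh3a1 (-0.655), and Arnt against Ahrr (-0.872). Ahr and Arnt, the receptor and its partner, had an r of only 0.121.

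The genes with the most similar profiles were taken as the 2 highest Pearson r per gene over the 12 libraries. Those of Ahr were Mid1ip1, a regulator of lipid synthesis (0.895), and Cyth3, an exchange factor for ARF proteins (0.877). For Arnt they were Lama4, a laminin chain (0.998), and Rnf122, a RING-type ubiquitin ligase (0.996), and for Ahrr they were Gclc, the catalytic subunit of the first enzyme of glutathione synthesis (0.984), and Neurl3 (0.981). Tiparp was closest to Slc25a30, a mitochondrial carrier (0.962), and Btc, an EGF family ligand (0.961). Cyp1a1 was closest to Fnbp1 and Kdm2b (both 0.966). Cyp1b1 was closest to Adh7, an alcohol dehydrogenase (0.956), and H2-D1, a class I histocompatibility gene (0.947). Aldh3a1 was closest to Ctsb, the protease cathepsin B (0.962), and Tnxb, a tenascin (0.957), whose level ran from 0 to 4.11 CPM. A high r did not always go with a like PFI-3 difference. Lama4, at 0 to 11.7 CPM, had log2 fold changes of -2.31, -0.76 and -1.03 at the 3 stages, unlike Arnt. Those of Kdm2b were 0.09, 0.26 and 0.23, beside 2.36, 4.40 and 4.36 for Cyp1a1. Those of Adh7 (0.94, 1.11 and 1.62) were nearer to Cyp1b1 (0.86, 1.49 and 1.57).

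The rest of the pathway was examined through 79 further genes in 8 lists, of which 65 were tested, 1 (Kynu) was listed in no library and 13 were too low. With PFI-3, 12 of the 65 rose and 2 fell in GM, where 5.46% of all genes tested rose and 6.15% fell. At DM 24h, 15 rose and 8 fell (12.2% and 11.4% of all genes), and at DM 48h 14 rose and 11 fell (13.4% and 14%). The median log2 fold change of the 65 was 0.14, 0.11 and 0.02, beside -0.01, 0.00 and 0.00 over all genes. Genes that rose made up 47%, 51.7% and 48.9% of all calls at the 3 stages, and 75.3%, 62% and 65.3% with limma on log2(FPKM + 1).

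Of 13 tested genes in the list of other reported targets, 5 rose and 1 fell in GM (5.46% and 6.15% of all genes). At DM 24h 7 rose and 2 fell (12.2% and 11.4%), and at DM 48h 4 rose and none fell (13.4% and 14%). Their median log2 fold changes were 1.33, 0.87 and 0.77. Each median is the value of a gene that was not called there, Selenbp1 in GM and at DM 48h and Ptgs2 at DM 24h. In GM, Selenbp1 had 3 and 4 counts with DMSO and 5 and 14 with PFI-3 (SE 0.58). The genes of this list are not targets of this receptor alone: several, Nqo1 among them, are also known targets of NRF2. Cyp1a2, the neighbour of Cyp1a1 and its closest relative, was too low to test, with counts only in the GM PFI-3 libraries, at 0.218 and 0.0712 CPM.

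Nqo1, a quinone reductase, measured 71.9 and 98.1 CPM in GM DMSO and 239 and 314 CPM in GM PFI-3. At DM 24h it measured 26.6 and 26.2 against 144 and 144 CPM, and at DM 48h 5.53 and 6.95 against 46.5 and 45.3 CPM. It rose by 1.70 (SE 0.14, adjusted p = 3.14e-05), 2.45 (SE 0.16, 1.11e-06) and 2.88 (SE 0.20, 1.45e-06) on the log2 scale, and kept its call in all 21 alternative settings at each stage. Its level in DMSO cells decreased over the stages while the log2 fold change between treatments did not. That fold change differed between stages by 0.75 (SE 0.21, adjusted p = 0.0731) and 0.43 (SE 0.26, adjusted p = 0.329), and neither passed edgeR's test of the interaction.

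Xdh, xanthine dehydrogenase, rose by 1.73 (SE 0.26, adjusted p = 0.00161), 2.74 (SE 0.27, 2.98e-05) and 2.82 (SE 0.29, 2.46e-05). Its GM DMSO libraries were apart, at 5.41 and 12.8 CPM, beside 31.6 and 29.6 CPM with PFI-3, and the GM value was 1.25 without DMSO library A and 2.5 without B. Ugt1a6a, a glucuronosyltransferase, rose by 1.67 (SE 0.27, adjusted p = 0.003), 2.05 (SE 0.23, 7.91e-05) and 1.51 (SE 0.24, 0.000679). The GM value was 2.35 without DMSO library B and 1.23 without A. Its counts were fractional in 11 of 12 libraries, as arises when reads are shared with other genes, so it is uncertain.

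Gsta1, a glutathione transferase with near-identical copies, was listed in 11 libraries with a fraction in 9 of them and is likewise uncertain. It rose by 3.24 in GM (SE 0.23, adjusted p = 1.14e-05), from 10.6 and 10.0 CPM to 76.1 and 119 CPM. At DM 24h it rose by 4.21 (SE 0.54, adjusted p = 0.00019), with 6.24 without DMSO library B and 3.42 without DMSO library A. Nfe2l2, which encodes NRF2, rose only at DM 24h among the 3 stages, by 0.48 (SE 0.13, adjusted p = 0.0207), a call lost without any of the 4 DM 24h libraries. Whether its change differed between stages did not pass the test.

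**Figure D4:**
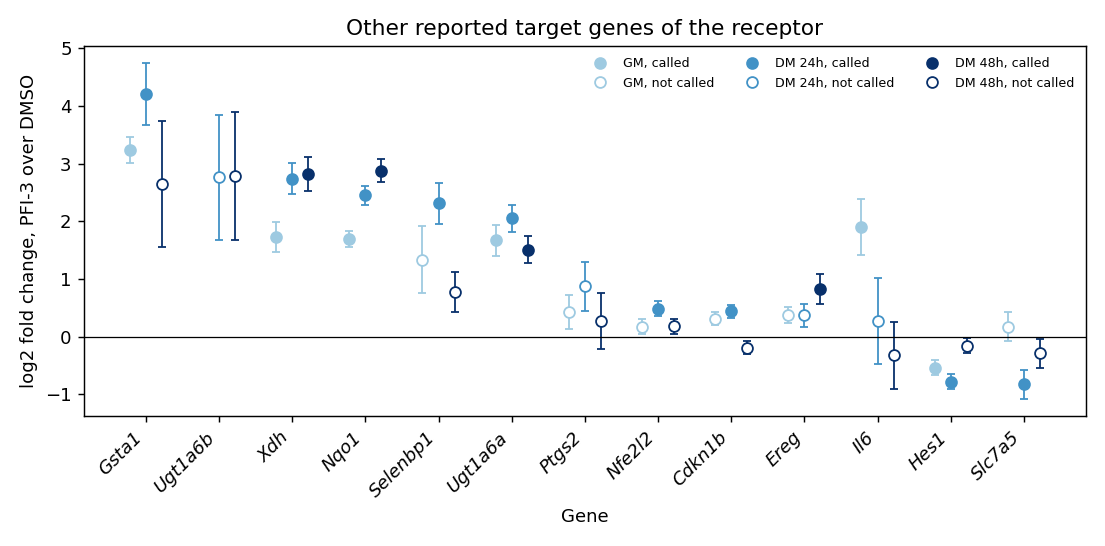
Log2 fold change of PFI-3 over DMSO with its SE for the 13 tested genes of the list of other reported targets, by stage. Filled points were called at an adjusted p under 0.05, open points were not, and the GM value of Ugt1a6b is left out because its DMSO libraries hold no counts. Nqo1, Xdh and Ugt1a6a rose at all 3 stages, and Hes1 fell in GM and at DM 24h.

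Among partner enzymes of xenobiotic metabolism, 2, 3 and 3 of 7 tested genes rose at the 3 stages and none fell. Over all genes 5.46%, 12.2% and 13.4% rose and 6.15%, 11.4% and 14% fell. Mgst1, a microsomal glutathione transferase, rose by 1.78 (SE 0.33, adjusted p = 0.00588), 2.10 (SE 0.25, 0.000112) and 1.41 (SE 0.26, 0.00154), although its GM DMSO libraries held only 0.784 and 1.33 CPM and its GM value was 2.21 without DMSO library B. Ephx1, microsomal epoxide hydrolase, rose by 0.63 (SE 0.20, adjusted p = 0.0366) at DM 24h, a call lost without any DM library, and by 1.20 (SE 0.20, adjusted p = 0.001) at DM 48h. Por, the reductase that supplies electrons to P450 enzymes, lay between 76.7 and 147 CPM in the 12 libraries and was called at no stage.

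Of the 5 genes of the chaperone complex that holds the receptor, 1 passed the PFI-3 test in GM, none at DM 24h and 1 at DM 48h. Src fell in GM by 0.26 (SE 0.07, adjusted p = 0.039) and Hsp90aa1 rose at DM 48h by 0.25 (SE 0.08, adjusted p = 0.0383). The first call was lost in 14 and the second in 8 of 21 alternative settings, each including the removal of any DM 24h library. Median log2 fold changes of the list were -0.09, -0.02 and 0.02. In DMSO cells, 4 of the 5 fell from GM to DM 24h (30% of all genes) and 3 fell from DM 24h to DM 48h (23.9%).

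Of 9 other bHLH-PAS genes tested, 1, 0 and 1 rose over the 3 stages, where 5.46%, 12.2% and 13.4% of all genes rose. Of the same 9, 0, 3 and 2 fell, where 6.15%, 11.4% and 14% of all genes did. Arnt2, the close relative of Arnt, measured 22.7 and 24.0 CPM with DMSO against 12.9 and 13.4 CPM with PFI-3 at DM 24h. It fell by 0.83 (SE 0.10, adjusted p = 0.000187) there and by 1.11 (SE 0.12, adjusted p = 2.67e-05) at DM 48h. Arntl, the clock gene also called Bmal1, fell by 0.78 (SE 0.15, adjusted p = 0.00271) and 1.11 (SE 0.15, adjusted p = 0.000202), from 19.9 and 19.8 to 9.24 and 9.21 CPM at DM 48h. Hif1a, another partner of ARNT, rose by 0.29 (SE 0.08, adjusted p = 0.0127) at DM 48h, a call lost without DMSO library A or B or PFI-3 library B of that stage.

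Of 12 coregulators none passed in GM, where 5.46% of all genes rose and 6.15% fell. At DM 24h 3 fell and none rose (11.4% and 12.2% of all genes), and at DM 48h 3 fell and 1 rose (14% and 13.4%). Rb1, the retinoblastoma gene, fell by 0.70 (SE 0.07, adjusted p = 3.49e-05) at DM 24h, from 162 and 168 to 101 and 102 CPM. Its fall of 0.27 (SE 0.07, adjusted p = 0.0121) at DM 48h was lost without either DMSO library or PFI-3 library A of that stage. Ncoa1, a coactivator of nuclear receptors, fell by 0.46 (SE 0.06, adjusted p = 0.000399) at DM 24h.

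Of 10 listed genes that turn tryptophan into kynurenine and related ligands, 5 passed the low-count filter, 4 were under it and Kynu was listed nowhere. Of the 5 tested, none was called in GM or at DM 24h, and 2 fell at DM 48h, where 14% of all genes fell. Ido1, which opens the kynurenine route, was at 0 counts in all 4 GM libraries, and it fell by 2.45 (SE 0.39, adjusted p = 0.00169) at DM 48h, from 3.98 and 3.35 to 0.862 and 0.468 CPM. Kyat3, a kynurenine aminotransferase, fell by 0.99 there (SE 0.33, adjusted p = 0.0458), a call lost in 9 of 21 alternative settings, among them the removal of any DM 48h library or either DM 24h DMSO library.

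Relatives of Tiparp and Aldh3a1 were set beside them. Of 11 tested genes that add or remove single ADP-ribose units, 3 rose in GM (5.46% of all genes) and 4 rose at DM 24h (12.2%). At DM 48h 4 rose and 2 fell (13.4% and 14%). Parp10 and Parp14, named after their values were seen, rose at all 3 stages. Parp10 rose by 1.21 (SE 0.16, adjusted p = 0.000952), 0.91 (SE 0.13, 0.000333) and 0.69 (SE 0.12, 0.00152). Parp14 rose by 1.52 (SE 0.43, adjusted p = 0.041), 0.74 (SE 0.24, 0.0455) and 0.99 (SE 0.23, 0.007), but its GM call was lost without GM PFI-3 library A (0.65), GM DMSO library A (1.21) or any DM library, that at DM 24h without any DM library, and that at DM 48h without either DMSO library or PFI-3 library A of that stage. Zc3hav1, the antiviral zinc-finger protein of the family, rose by 0.32 (SE 0.07, adjusted p = 0.00878) at DM 24h, a call lost without either DMSO library or PFI-3 library A of that stage, and by 0.57 (SE 0.08, adjusted p = 0.000167) at DM 48h. Parp12 rose by 0.62 (SE 0.08, adjusted p = 0.000175) at DM 48h. Macrod1, which removes the modification, rose by 1.09 (SE 0.17, adjusted p = 0.00208) in GM, from 2.74 and 2.44 to 6.04 and 4.99 CPM, and fell by 0.74 (SE 0.10, adjusted p = 0.000186) at DM 48h, from 44.5 and 49.8 to 28.4 and 28.2 CPM.

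The 3 relatives of Aldh3a1 did not share its difference at every stage. Aldh3a2, the fatty aldehyde dehydrogenase, rose by 0.46 (SE 0.08, adjusted p = 0.00461) in GM and by 0.31 (SE 0.08, adjusted p = 0.0156) at DM 24h, the latter lost without any DM 24h library. Aldh3b1 fell by 0.72 (SE 0.16, adjusted p = 0.00582) at DM 48h, a call lost without DMSO library B or either PFI-3 library of that stage. Aldh3b2 had 3 counts over both DM 48h PFI-3 libraries and fell there (adjusted p = 0.00808), from 1.14 and 1.72 to 0.0783 and 0.156 CPM, a call lost without the same 3 libraries.

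The PFI-3 effect was also compared between stages, which differed in length of exposure to PFI-3 too, for these 65 genes. From GM to DM 24h it differed for 4 genes, each with a lower effect at DM 24h, where 3.37% of all genes tested differed. From DM 24h to DM 48h it differed for 10 genes, 6 with a higher and 4 with a lower effect, where 12.1% of all genes did. No gene of the list of other reported targets was among the first 4, and 2 of its 13, Cdkn1b and Hes1, were among the 10, named here after their values were seen. In DMSO cells over time, 24 of the 65 rose and 15 fell from GM to DM 24h (30.6% and 30% of all genes). From DM 24h to DM 48h 13 rose and 15 fell (24.2% and 23.9%). The other reported targets had a median log2 change of -0.64 and -0.11 over these steps, beside 0.02 and 0.00 over all genes, with 4 rising and 5 falling in the first and 1 rising and 3 falling in the second.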

How the data were processed

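RNA sequencing tables, 1 per library, were used. Per the file headers, the authors deposited an expected count and an FPKM value per gene, with genes given by NCBI Gene number and RefSeq transcript. The submitters' processing notes name HISAT, StringTie, Cufflinks, Bowtie, RSEM, DESeq2 and the build mm10, with no role or order. A gene not listed in a table was taken as 0 there: where only 1 replicate of a group listed a gene, its count was at most 5 in 97% of 6963 cases. Deposited expected counts were rounded and fitted in edgeR 4.0.16 under R 4.3.3 (quasi-likelihood test, TMM scaling), with the default low-count filter and 1 model of 6 groups over 12 libraries, so that all groups share the estimate of the spread. Benjamini-Hochberg adjustment ran over 12545 genes, and genes with an adjusted p under 0.05 are called and are said to have risen or fallen. The libraries A and B of a group were read from the sample titles. Log2 fold changes carry SEs from that test, CPM correlations used log2 CPM with a prior count of 2, and count ratios carry exact 95% intervals. PCR reads without molecular identifiers are not independent molecules, so these cover counting error only. Counting was not stated to use strand.

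The genes and lists were chosen with earlier results of these data known. Named were the 7 genes, Cyp1a2, Nqo1, Gsta1, Ugt1a6a, Arnt2, Nfe2l2 and Por, up to 3 called genes of lowest adjusted p per list, and the 2 genes of most similar profile to each of the 7; some genes that this rule names are not reported here. Motifs were searched on both strands, with promoters and coordinates from RefSeq on GRCm38.p6. Alternatives were DESeq2 size factors and its Wald test (DESeq2 1.42.0), no filter, a mean of at least 10 counts, limma 3.58.1 on log2(FPKM + 1) and log2(FPKM + 0.1), only the libraries compared, the library letter as a block, and leaving out each library. The tests were checked on simulated counts.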

Additional observations from a re-analysis of the deposited data

Results flagged for a closer look

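Ahr differed in direction between stages: both PFI-3 libraries lay above both DMSO libraries in GM and below them at DM 24h, and the log2 fold changes differed by -1.14 (SE 0.18). This difference was not tested, because the gene had been chosen on these contrasts. Length of exposure to PFI-3 also differed between the stages, here and in the differences below, and cannot be told apart from stage.

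For the genes of the pathway lists that the naming rule picked, a difference of the PFI-3 effect between 2 stages passed edgeR's test of the interaction in 10 cases, out of the 4 and 10 calls over all 65 genes for the first and second step. From GM to DM 24h the effect changed by -0.96 (SE 0.20, adjusted p = 0.0268) for Arntl, -0.84 (SE 0.11, adjusted p = 0.00209) for Rb1, -0.66 (SE 0.10, adjusted p = 0.00529) for Ncoa1 and -0.96 (SE 0.20, adjusted p = 0.028) for Macrod1. From DM 24h to DM 48h it changed by 0.48 (SE 0.11, adjusted p = 0.0174) for Hsp90aa1, 0.43 (SE 0.10, adjusted p = 0.0152) for Rb1, 0.36 (SE 0.09, adjusted p = 0.0242) for Ncoa1 and 0.41 (SE 0.11, adjusted p = 0.038) for Parp12. Over the same step it changed by -0.86 (SE 0.15, adjusted p = 0.00313) for Macrod1 and -0.98 (SE 0.23, adjusted p = 0.0169) for Aldh3b1. The first change of Rb1 and the second of Macrod1 kept their calls in all 21 alternative settings, and the first change of Ncoa1 in 20. The other 7 lost theirs in 6 to 11 settings with the same sign, including the removal of 1 library at a time: for Arntl any DM library, for the first change of Macrod1 GM PFI-3 library A, GM DMSO library B, any DM 24h library or either DM 48h PFI-3 library, for Hsp90aa1 any DM library but DM 24h PFI-3 B and DM 48h DMSO B, for the second change of Rb1 any DM library but DM 24h DMSO A and DM 48h PFI-3 A, for the second change of Ncoa1 and for Parp12 any DM library, and for Aldh3b1 any DM library but DM 48h DMSO A. Over the settings, the adjusted p ran from 1.35e-08 to 0.0994 for Hsp90aa1, from 0.00238 to 0.128 for Arntl and from 1.54e-09 to 0.177 for Aldh3b1.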

How the results depend on the processing

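The 21 log2 fold changes of PFI-3 over DMSO in the 7 genes kept their sign in all 21 alternatives, except that of Arnt in GM. For Cyp1a1 and Aldh3a1 in GM the largest move came from leaving out PFI-3 library B, and for Cyp1a1 in DM from limma on log2(FPKM + 1), which gave 0.99 at both stages. Of 273 alternative values for their changes over time in DMSO cells, 237 kept direction and call, 27 lost the call, 8 gained one and 1 turned.

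Fitting only the libraries compared moved calls over all genes to 32 (GM), 5583 (DM 24h) and 5688 (DM 48h) from 1456, 2966 and 3438. Pathway genes called moved to 2 in GM and 39 at DM 24h, and those differing between stages to 2 and 24. In that fit Ahr (0.42, adjusted p = 0.0575) and Cyp1b1 (-0.27, adjusted p = 0.0819) lost their calls from GM to DM 24h, and Cyp1b1 (-0.16, adjusted p = 0.00121) and Aldh3a1 (-0.77, adjusted p = 3.58e-07) gained one from DM 24h to DM 48h. In GM such a fit rests on 4 libraries and the wider GM pairs alone. With limma on log2(FPKM + 1) and log2(FPKM + 0.1), Ahr from DM 24h to DM 48h (0.26 and 0.31) and Cyp1b1 from GM to DM 24h (-0.22 in both) lost their calls, and the cause was not tested. The longer motif was held by 1 promoter window in place of 5.

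The labels do not say what the letters A and B mark. Between treatments, the correlation of deviations from the group means for libraries with the same letter was 0.395 (GM), 0.013 (DM 24h) and 0.030 (DM 48h). Only that in GM was over 0.1, so the letter was not taken to pair the libraries across the study. With the replicate block the calls were 1489, 3040 and 3452, and Cyp1b1 from GM to DM 24h (-0.28, adjusted p = 0.0539) lost its call. The block within only the libraries compared, added after the data had been seen, gave 741, 5719 and 6034 calls, 39 pathway genes at DM 24h, 1 and 24 between stages, and -0.26 for the same Cyp1b1 change, without a call. The Cyp1b1 (-0.16) and Aldh3a1 (-0.77) changes from DM 24h to DM 48h passed in it.

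Leaving out 1 library at a time gave 1019 to 2734 calls in GM (the highest without GM DMSO library B), 1320 to 3923 at DM 24h and 1937 to 4323 at DM 48h, each of the last 2 lowest without a library of that stage. Pathway genes called ranged from 13 to 29 at DM 24h and 14 to 28 at DM 48h, and those differing between stages from 2 to 8 and from 2 to 12. From GM to DM 24h in DMSO cells Ahr ranged from 0.24 to 0.61, Cyp1b1 from -0.42 to -0.13 and Aldh3a1 from 0.28 to 0.44. From DM 24h to DM 48h Ahr ranged from 0.35 to 0.41, Ahrr from -1.13 to -0.89, Tiparp from -0.05 to 0.01 and Aldh3a1 from -0.84 to -0.69; Tiparp turned sign without DM 48h DMSO library A. The lone remaining library of a group is then assumed to vary like the others. Of 880 alternative values for 42 called changes of named pathway genes, 796 kept the call, 84 lost it and none turned. Depth limits Cyp1a1 in differentiating DMSO cells, where 1 or 2 counts per library set the ratio.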
